A study of Homo sapiens with 4 samples.

Results

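The simple epithelial keratin genes KRT7, KRT8, KRT18, KRT19 and KRT80 were examined for called regions of accessible chromatin in 786-O cells, an established human kidney cancer line of the clear cell type in which the tumour suppressor VHL is inactive. All peaks that overlapped the RefSeq span of a member or the 25 kb on either side of it were taken, which gave windows of 297 kb in total and 28 regions out of 53572 in the series. The genes were chosen by name, at a time when it was already known from these peak lists that KRT8 and KRT18 had called peaks in all 4 libraries, so the calls at these genes are given as a description and no test was run on them. Accessibility was measured by ATAC-seq, which reads out where the Tn5 transposase can insert adapters into DNA. One group of 2 libraries came from cells given DMSO, the solvent, and the other group of 2 from cells given 5 µM of the compound labelled ACSS2i, and cells of both groups were collected after 24 h. The line, the medium and the serum were the same in both groups, no other genotype or agent is named in the labels, and the question of the study was how accessible regions differed after ACSS2i. The labels do not say whether the libraries of a group came from separate cultures, so the spread between them may be technical, and 2 libraries against 2 could not have given an exact two-sided permutation p below 0.333.

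Keratins are the intermediate filament proteins of epithelial cells, and a filament is built from pairs of 1 type I and 1 type II chain. The type II genes, including KRT7, KRT8 and KRT80, lie in a cluster on chromosome 12, and the type I genes lie in a cluster on chromosome 17, except KRT18, which neighbours KRT8 on chromosome 12. KRT8 and KRT18 form the first pair made in the embryo and the main pair of single-layered epithelia such as kidney tubules, liver and gut. KRT7 and KRT19 are added in ducts and collecting ducts, and KRT80 is a type II keratin found near cell margins and desmosomes in many epithelia.

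The libraries differed across the whole genome before any gene was considered. The lists held 34696 and 50294 peaks in DMSO replicates 1 and 2, against 16400 and 22044 in the 2 ACSS2i replicates, so the ACSS2i lists were shorter everywhere. Background coverage, solved from the peak values as described under processing, was 2.06 and 1.75 fragments with DMSO against 2.32 and 3.16 with ACSS2i. Among genes that mark renal tumour lines, PAX8 had a peak within 1000 bp of a gene end in 3 libraries, while PAX2 and CA9 had none. Of 8 markers of immune, endothelial and stromal cells, CD68 and COL1A1 had such a peak in every library and the other 6 in none, and a peak at a gene end can belong to a neighbouring gene.

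Most regions called in DMSO around the simple epithelial keratins were also called after ACSS2i, and those missing from both ACSS2i lists had lower DMSO ranks near or below the series median. A region here is the union of overlapping peaks from any of the 4 libraries. A peak was present in 22 and 26 of the 28 regions in the DMSO replicates, against 15 and 16 in the ACSS2i replicates. Of 21 regions called in both DMSO libraries, 14 (66.7%) were called in all 4 libraries, beside 42.2% of such regions in the series. Another 5 (23.8%) were called in neither ACSS2i library, beside 33.5% in the series, and the remaining 2 were called in 1 ACSS2i library. No region was called in both ACSS2i libraries and neither DMSO library. DMSO replicate 1 decided part of this: without it, 10 of 26 regions of DMSO replicate 2 were called in neither ACSS2i library (38.5%, beside 55.9% in the series at the same setting).

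Strength within a library was expressed as a percentile, the share of the library's peaks whose −log10 q, the peak caller's own significance value, was no higher. The lower of the 2 DMSO percentiles had a median of 66.7 over the 21 keratin regions, against 51.4 over the series. All 9 keratin regions with a lower DMSO percentile of 75 or more were called in all 4 libraries, beside 93.0% of such regions in the series. Among the 12 keratin regions under 75, 5 were called in all 4 libraries, beside 26.1% in the series. The count among strong regions was therefore near the background. Strong regions made up 9 of the 21 in the keratin windows, against 7588 of 31506 in the series.

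**Figure D1:**
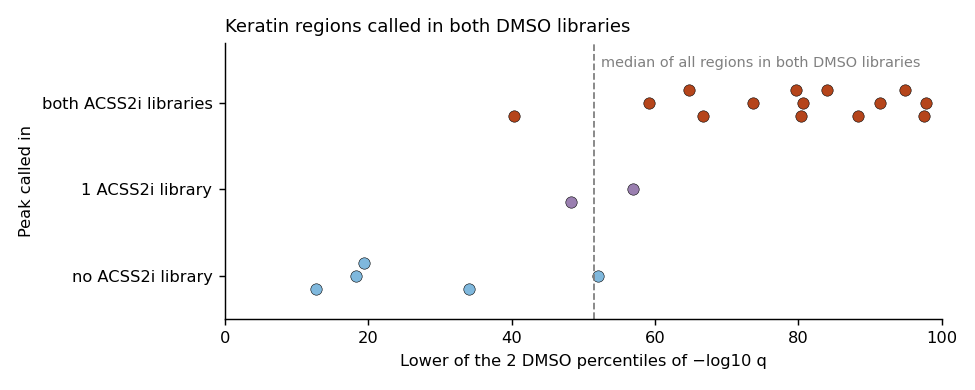
The 21 keratin regions called in both DMSO libraries are plotted by the lower of their 2 DMSO percentiles of −log10 q (horizontal axis) and by whether both, 1 or no ACSS2i library had a peak there (rows); vertical shifts of points within a row carry no meaning. The 14 regions in the top row start at a percentile of 40.3, the 5 in the bottom row lie between 12.7 and 52.0, and the dashed line is the series median of 51.4.

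**Figure D2:**
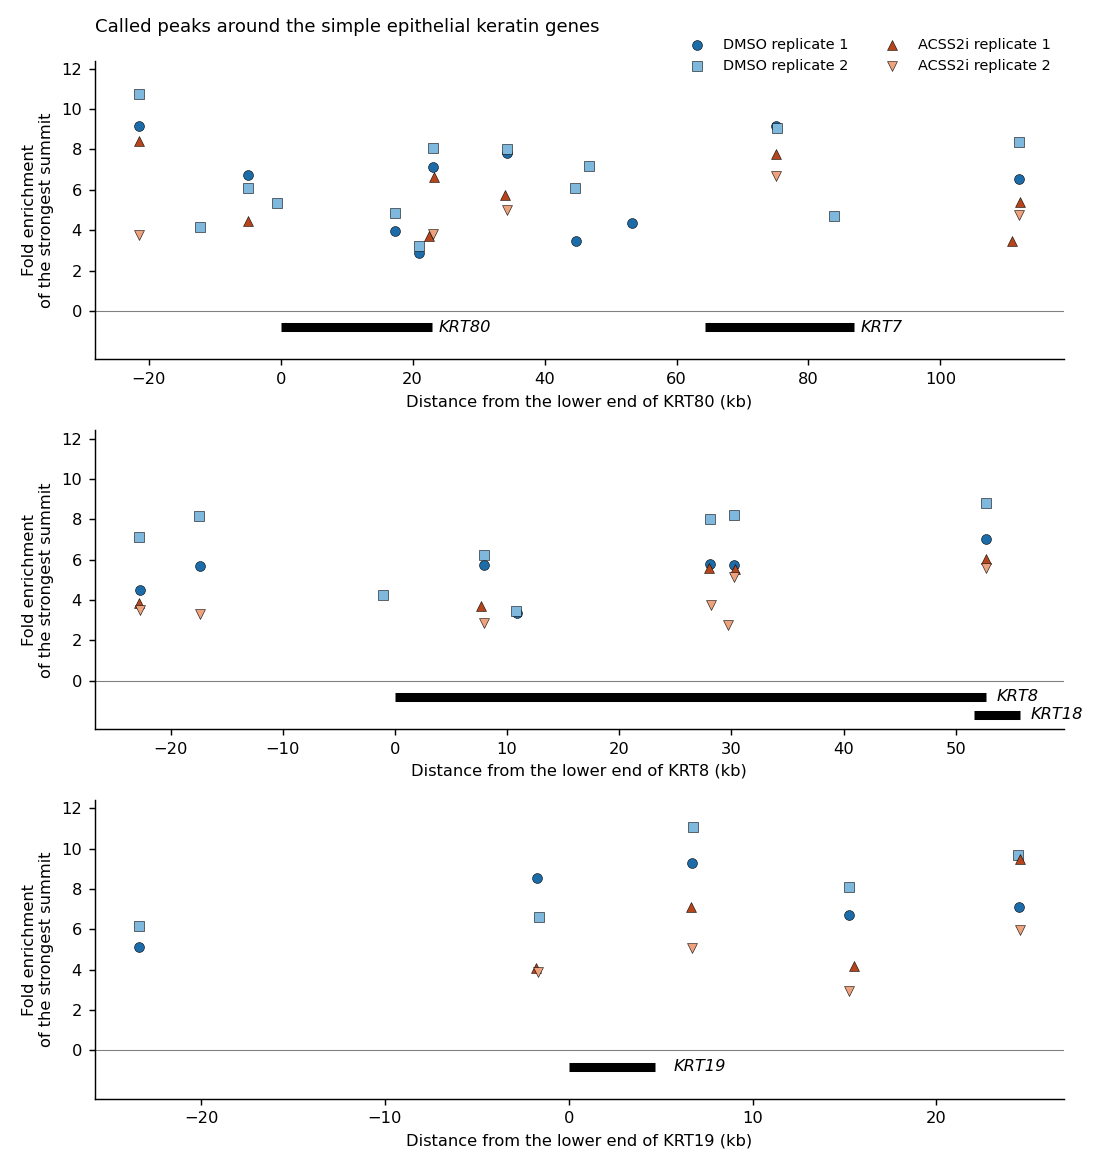
Every called peak in the keratin windows is plotted by the fold enrichment of its strongest summit (vertical axis) against its distance in kb from the lower end of KRT80, KRT8 or KRT19 (horizontal axis), with circles and squares for DMSO replicates 1 and 2 and triangles pointing up and down for ACSS2i replicates 1 and 2. Black bars are the RefSeq gene spans, and blue symbols with no red symbol beside them mark regions called in DMSO alone.

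KRT8 and KRT18, the 2 partners of the basic simple epithelial filament, share 1 stretch of chromosome 12. KRT8 spans chr12:52897191-52949860 and KRT18 spans chr12:52948855-52952906 (hg38), so the upper end of the KRT8 span overlaps the lower end of KRT18. The KRT8 window held 9 regions, 5 of them called in all 4 libraries, and the KRT18 window held 4, all shared with KRT8.

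The region at the overlap of KRT8 and KRT18 (chr12:52948884-52950106) covered the upper end of KRT8 and lay just inside the lower end of KRT18. Its fold enrichment, the authors' value for the summit over local background in the same library, was 7.02 and 8.82 in the first and second DMSO replicate against 6.03 and 5.57 in the first and second ACSS2i replicate. The groups did not overlap, with ACSS2i the lower. The summits of the 4 libraries fell within 28 bp of each other, the tightest agreement in position among the 14 shared regions. Peak width was 1143 and 1223 bp in DMSO against 784 and 897 bp in ACSS2i. The percentile was 73.7 and 83.6 in DMSO against 76.7 and 82.5 in ACSS2i, so within its own list this region ranked alike in the 2 groups. The summit stood on 33 fragments (95% exact Poisson interval 22.7 to 46.3) in DMSO replicate 1, 77 (60.8 to 96.2) in DMSO replicate 2, 24 (15.4 to 35.7) in ACSS2i replicate 1 and 37 (26.1 to 51.0) in ACSS2i replicate 2. On this raw scale, which was not divided by background coverage, the groups overlapped, because ACSS2i replicate 2 lay above DMSO replicate 1. Such intervals cover counting error only.

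Inside the KRT8 span, 3 further regions were called in all 4 libraries. The spans used carry no exons, so whether a region lies at a KRT8 start was not examined beyond the promoter entry given below. The lowest of them (chr12:52903533-52905329) lay 6342 bp above the lower end of KRT8. Fold there was 5.75 and 6.22 in DMSO against 3.72 and 2.85 in ACSS2i, and width was 788 and 1797 bp in DMSO against 732 and 186 bp in ACSS2i. This was the KRT8 region with the widest gap in rank: its percentile was 66.7 and 67.9 in DMSO against 20.5 and 11.5 in ACSS2i. The lists differ in length, so a gap in percentile is a place within each list and not a measured change. The other 2 lay close together. At chr12:52924801-52926249 fold was 5.80 and 8.04 in DMSO against 5.60 and 3.73 in ACSS2i, and at chr12:52927125-52927731 it was 5.75 and 8.21 in DMSO against 5.51 and 5.16 in ACSS2i. In both regions DMSO replicate 2 stood well above the other 3 libraries, and DMSO replicate 1 and ACSS2i replicate 1 were separated by less than the DMSO replicates were from each other. Percentiles were 80.6 and 92.4 in DMSO against 81.3 and 50.7 in ACSS2i for the lower region, and 79.6 and 92.7 in DMSO against 78.0 and 83.0 in ACSS2i for the upper one. Widths were 915, 1307, 1009 and 494 bp for the lower region and 448, 607, 267 and 366 bp for the upper one, in the order DMSO replicates 1 and 2 and ACSS2i replicates 1 and 2. The lower region was the only shared one in which the widths of the groups overlapped.

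These 2 regions lie on either side of the only KRT8 start given in the RefSeq promoter table (GRCh38.p14), which holds an entry for 1 of the 5 members. The entry runs over chr12:52926420-52926719 on the minus strand, from 250 bases before the start to 50 after it, and it is shown because peaks flanked it in every library while no peak of any library overlapped it. The KRT8 span reaches above this entry to chr12:52949860, so a gene on the minus strand cannot begin only at this start. Other starts of KRT8 were not examined, and which start these cells used was not tested. The missing call here therefore does not describe every KRT8 start. Capitals mark matches to the words searched.

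KRT8: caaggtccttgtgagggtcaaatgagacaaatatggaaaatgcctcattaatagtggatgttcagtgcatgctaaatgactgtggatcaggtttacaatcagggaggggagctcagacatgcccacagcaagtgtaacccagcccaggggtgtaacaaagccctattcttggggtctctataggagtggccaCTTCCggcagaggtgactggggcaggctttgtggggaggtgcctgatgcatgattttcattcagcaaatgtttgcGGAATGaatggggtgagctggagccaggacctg

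The nearest peak above this stretch began 516 and 406 bp away in DMSO against 587 and 75 bp away in ACSS2i, and the nearest peak below ended 598 and 171 bp away in DMSO against 611 and 699 bp away in ACSS2i. The peak at 75 bp was called in ACSS2i replicate 2 alone (chr12:52926794-52927004, 211 bp, fold 2.78, percentile 12.7), and it was the only keratin region called in ACSS2i and not in DMSO. Of 35116 promoter entries in the table, 43.6% were overlapped by a peak in at least 1 library. Searching both strands, the sequence holds 1 TEAD core (CATTCC, read here as GGAATG), present in 14.0% of all entries, and 1 ETS core (GGAAG, read here as CTTCC), present in 71.9%. AP-1 (TGANTCA), the GC box (GGGCGG), the TATA box (TATAAA) and the HIF core (ACGTG) have no match in these letters and occur in 7.71%, 45.0%, 11.5% and 21.4% of entries. A match is a string of letters and not a measured binding site.

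Outside the KRT8 span, the region 22.2 kb below it (chr12:52873914-52874962) was called in all 4 libraries with fold 4.49 and 7.12 in DMSO against 3.83 and 3.49 in ACSS2i. Its peaks were 650 and 1049 bp wide in DMSO and 231 and 202 bp in ACSS2i. The ratio of its mean widths was 0.255, the lowest among the shared regions. Its percentiles were 40.3 and 70.0 in DMSO against 24.4 and 39.1 in ACSS2i, and the 40.3 was the weakest DMSO rank of any keratin region kept in all 4 lists.

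Another 3 regions around KRT8 were called in some libraries and not in others. At chr12:52879500-52880163, 17.03 kb below KRT8, fold was 5.67 and 8.17 in DMSO and 3.31 in ACSS2i replicate 2, with no call in ACSS2i replicate 1. Its percentile was 56.9 and 67.4 in DMSO and 24.1 in ACSS2i replicate 2, so by its lower DMSO percentile it stood above the region 22.2 kb below KRT8 that every library called. At chr12:52907812-52908327, inside KRT8, fold was 3.33 and 3.45 in DMSO, with percentiles of 18.3 and 26.4 and widths of 336 and 467 bp, and neither ACSS2i library had a call. A peak 507 bp below the lower end of KRT8 (chr12:52895450-52896684, 1235 bp) was called in DMSO replicate 2 alone, at fold 4.27 and percentile 28.0. Each of these 3 regions was missing from at least 1 ACSS2i list.

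KRT7, a type II keratin of ducts and collecting ducts, spans chr12:52233243-52255853, and its window held 6 regions. No library had a peak within 1000 bp of either end of the gene. The main KRT7 region lay inside the span, 10.1 kb from the lower end (chr12:52243356-52244692), and its fold was 9.18 and 9.06 in DMSO against 7.77 and 6.69 in ACSS2i. The DMSO values nearly coincided and both ACSS2i values lay below them. Widths were 1197 and 1337 bp in DMSO against 899 and 1057 bp in ACSS2i, and the percentile was 96.0 and 88.3 in DMSO against 94.0 and 94.4 in ACSS2i. Signal over background, the summit coverage divided by the lowest background of the library, was 29.2 and 51.5 in DMSO against 14.7 and 15.5 in ACSS2i. The ratio of the ACSS2i to the DMSO mean was 0.374, the highest of the 14 shared keratin regions.

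A second shared region of the KRT7 window (chr12:52279115-52281399) lay 23.3 kb above KRT7 and inside the span of KRT86, a hair keratin gene. Fold was 6.54 and 8.38 in DMSO against 5.40 and 4.75 in ACSS2i, and the percentile was 84.0 and 85.6 in DMSO against 75.6 and 71.0 in ACSS2i. It was the widest keratin region: the peak was 2243 and 1666 bp wide in DMSO and 1644 bp wide in ACSS2i replicate 2, whereas ACSS2i replicate 1 had 2 separate peaks of 158 and 920 bp. Within KRT7 a weaker peak (chr12:52252436-52252995) was called in DMSO replicate 2 alone, at fold 4.71 and percentile 26.9. Below KRT7, chr12:52222128-52222376 was called in DMSO replicate 1 alone (fold 4.36, percentile 20.2), and chr12:52215439-52215885 in DMSO replicate 2 alone (fold 7.19, percentile 63.2). The last of these was the strongest region of the windows that rested on 1 library.

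The windows of KRT7 and KRT80 also share a region that was called in DMSO only, 19.3 kb below KRT7 (chr12:52213535-52213933). Fold was 3.48 and 6.09 in DMSO replicates 1 and 2, width was 307 and 341 bp, and the percentile was 12.7 and 54.0. It overlapped the RefSeq promoter entry of the non-coding gene LINC02874 (chr12:52213534-52213833, minus strand), and 7.66% of all entries likewise had overlapping peaks in both DMSO lists and in no ACSS2i list. The region inside KRT86 overlapped the entry of KRT86-AS2 (chr12:52279107-52279406, minus strand) in DMSO replicate 1 alone, where the peak reached furthest down. Both entries were chosen after their values were seen, and they are shown because they are the only entries in the keratin windows that a peak overlapped. Capitals mark the words searched, as above.

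LINC02874: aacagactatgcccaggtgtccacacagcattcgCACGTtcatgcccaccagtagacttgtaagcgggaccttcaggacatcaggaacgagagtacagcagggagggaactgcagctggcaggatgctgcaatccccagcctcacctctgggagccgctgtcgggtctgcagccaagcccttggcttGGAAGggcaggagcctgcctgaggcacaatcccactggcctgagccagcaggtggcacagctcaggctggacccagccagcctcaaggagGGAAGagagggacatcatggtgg

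KRT86-AS2: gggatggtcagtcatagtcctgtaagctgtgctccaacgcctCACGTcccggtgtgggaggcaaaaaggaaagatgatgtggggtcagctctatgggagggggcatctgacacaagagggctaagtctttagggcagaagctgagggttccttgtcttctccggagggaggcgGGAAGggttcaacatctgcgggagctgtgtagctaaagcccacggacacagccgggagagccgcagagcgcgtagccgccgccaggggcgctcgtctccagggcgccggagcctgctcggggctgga

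The LINC02874 entry holds 1 HIF core (read as CACGT) and 2 ETS cores, and the KRT86-AS2 entry holds 1 HIF core and 1 ETS core. The shares of all entries with these words are the 21.4% and 71.9% given above.

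KRT80, the type II keratin of cell margins, spans chr12:52168996-52192014, and with 10 regions its window was the fullest of the 5. Of the 10, 7 were called in both DMSO libraries and 3 in all 4, a share of the 7 near the 42.2% of the series. One of them covered the upper end of the gene (chr12:52191005-52192766), with fold 7.13 and 8.06 in DMSO against 6.63 and 3.82 in ACSS2i. The ACSS2i replicates lay further apart here than the DMSO replicates, and both were below the DMSO values. Widths were 1712 and 1694 bp in DMSO. In ACSS2i replicate 1 the region was split into peaks of 338 and 724 bp, and in ACSS2i replicate 2 it was a single peak of 962 bp. The percentile of the strongest peak was 93.7 and 91.4 in DMSO against 88.3 and 60.2 in ACSS2i.

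The other 2 shared regions flanked KRT80. The region 20.8 kb below it (chr12:52147040-52148150) had fold 9.18 and 10.7 in DMSO against 8.43 and 3.75 in ACSS2i, and percentiles of 98.2 and 97.8 in DMSO against 97.7 and 56.9 in ACSS2i. It was among the strongest peaks of 3 libraries and near the middle of the list in ACSS2i replicate 2. Its width was 1111 and 845 bp in DMSO against 673 and 581 bp in ACSS2i. The region 10.4 kb above KRT80 (chr12:52202432-52203854) had fold 7.84 and 8.04 in DMSO against 5.76 and 5.01 in ACSS2i, with percentiles of 92.1 and 80.3 in DMSO against 80.0 and 81.8 in ACSS2i. Widths of 1370 and 1421 bp in DMSO stood against 814 and 979 bp in ACSS2i. Both regions had lower fold and smaller width in both ACSS2i libraries than in either DMSO library.

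Several weaker regions of the KRT80 window were called in DMSO and were missing from at least 1 ACSS2i list. Inside the gene, chr12:52186149-52186690 had fold 3.98 and 4.84, percentiles of 34.0 and 46.8 and widths of 413 and 542 bp in DMSO, and chr12:52189663-52190375 had fold 2.86 and 3.24, percentiles of 19.4 and 35.4 and widths of 491 and 601 bp. Neither ACSS2i library had a call at either place. Below the gene, chr12:52163896-52164267 was called in both DMSO libraries at fold 6.73 and 6.07 and in ACSS2i replicate 1 at fold 4.43, with widths of 227, 335 and 153 bp and percentiles of 63.4, 48.2 and 34.8. A peak 392 bp below the lower end of KRT80 (chr12:52168427-52168604, 178 bp, fold 5.36, percentile 43.5) and a peak 12.01 kb below it (chr12:52156418-52156987, 570 bp, fold 4.18, percentile 25.1) were called in DMSO replicate 2 alone. The upper end of KRT80 was thus called in every library and its lower end in 1.

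KRT19, the type I keratin of ducts, lies apart from the other members at chr17:41523617-41528308. No peak lay in its span or within 1000 bp of its ends in any library, but 2 shared regions lay just beyond. One began 1.61 kb above the gene (chr17:41529914-41531046) and had the highest DMSO folds of any region in the member windows, 9.30 and 11.1, with 7.12 and 5.09 in ACSS2i. Its percentiles were 95.1 and 94.9 in DMSO against 90.4 and 83.3 in ACSS2i, and its widths were 1042 and 1133 bp in DMSO against 905 and 920 bp in ACSS2i. The other ended 1.17 kb below the gene (chr17:41521491-41522448), with fold 8.55 and 6.59 in DMSO against 4.11 and 3.89 in ACSS2i. Here the order of the DMSO replicates was turned round, with replicate 1 above replicate 2 in fold. The percentile was 88.6 and 59.2 in DMSO against 34.4 and 55.4 in ACSS2i, and the width was 550 and 958 bp in DMSO against 244 and 378 bp in ACSS2i.

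Further above KRT19, the region 10.1 kb away (chr17:41538432-41539351) had fold 6.71 and 8.11 in DMSO against 4.19 and 2.93 in ACSS2i. Its DMSO percentiles were 66.1 and 64.7, while 29.1 and 11.7 in ACSS2i placed it among the weaker peaks of those lists. Widths were 752 and 920 bp in DMSO against 371 and 491 bp in ACSS2i. The region 19.2 kb above KRT19 (chr17:41547473-41549467) ranked highest among the keratin regions in every library except DMSO replicate 1, where the region 20.8 kb below KRT80 stood above it. Its percentile was 97.5 and 99.4 in DMSO against 99.8 and 97.1 in ACSS2i, and its width was 1965 and 1995 bp in DMSO against 1897 and 1882 bp in ACSS2i. Fold was 7.10 and 9.69 in DMSO against 9.48 and 5.95 in ACSS2i, so it was the only shared region in which the folds of the groups overlapped. The fifth KRT19 region (chr17:41500097-41500382), 23.2 kb below KRT19 and 599 bp below KRT13, a mucosal keratin gene, was called in DMSO only, at fold 5.14 and 6.15, percentiles of 52.0 and 57.8 and widths of 205 and 286 bp. It was the strongest of the 5 regions called in both DMSO libraries and in no ACSS2i library.

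Across the 14 shared regions, signal over background was lower in both ACSS2i libraries than in both DMSO libraries at every region, and this was equally the case for 99.2% of the 13306 shared regions of the series. The median over the keratin regions was 23.6 and 50.3 in DMSO against 12.1 and 10.9 in ACSS2i. The corresponding medians over the series were 19.2 and 44.1 in DMSO against 8.64 and 9.17 in ACSS2i. The ratio of the ACSS2i mean to the DMSO mean had a median of 0.313 over the keratin regions (range 0.246 to 0.374), beside a series median of 0.294 with quartiles of 0.260 and 0.331. The lowest ratio belonged to the lower of the 2 regions beside the KRT8 promoter entry, where signal over background was 45.7 ± 30.9 in DMSO and 11.2 ± 2.45 in ACSS2i (SD, n = 2). At the shared end of KRT8 and KRT18 it was 30.0 ± 19.8 in DMSO and 11.0 ± 0.942 in ACSS2i (SD, n = 2), a ratio of 0.367. The spread between replicates was wider with DMSO than with ACSS2i at all 14 regions, and the size of the ratio depended on them: replicate 1 against replicate 1 gave a median of 0.502, and replicate 2 against replicate 2 gave 0.214. In cells measured in bulk, fewer cells with an open site and less opening in each cell cannot be told apart. The contribution of the genome-wide difference in background coverage to these ratios was not tested.

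Other measures of the shared regions gave smaller gaps between the groups. The deposited fold had a median ratio of 0.676 (range 0.480 to 0.919), beside 0.610 in the series, and both ACSS2i values lay below DMSO in 13 of 14 regions, beside 82.2% in the series. The summit coverage without division by background had a median ratio of 0.460, beside 0.438 in the series, and was lower in both ACSS2i libraries in 12 of 14, beside 86.5%, so the count was near the background. Peak width had a median ratio of 0.642, beside 0.610 in the series, and was smaller in both ACSS2i libraries in 13 of 14, beside 79.9%. On all 4 scales the keratin median of the group ratio lay above the series median, and by signal over background 9 of the 14 regions had a ratio above it. Replicate 2 against replicate 2 did not show this for 3 of the scales: the keratin and series medians were 0.214 and 0.215 for signal, 0.388 and 0.389 for summit coverage, and 0.645 and 0.651 for width.

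**Figure D3:**
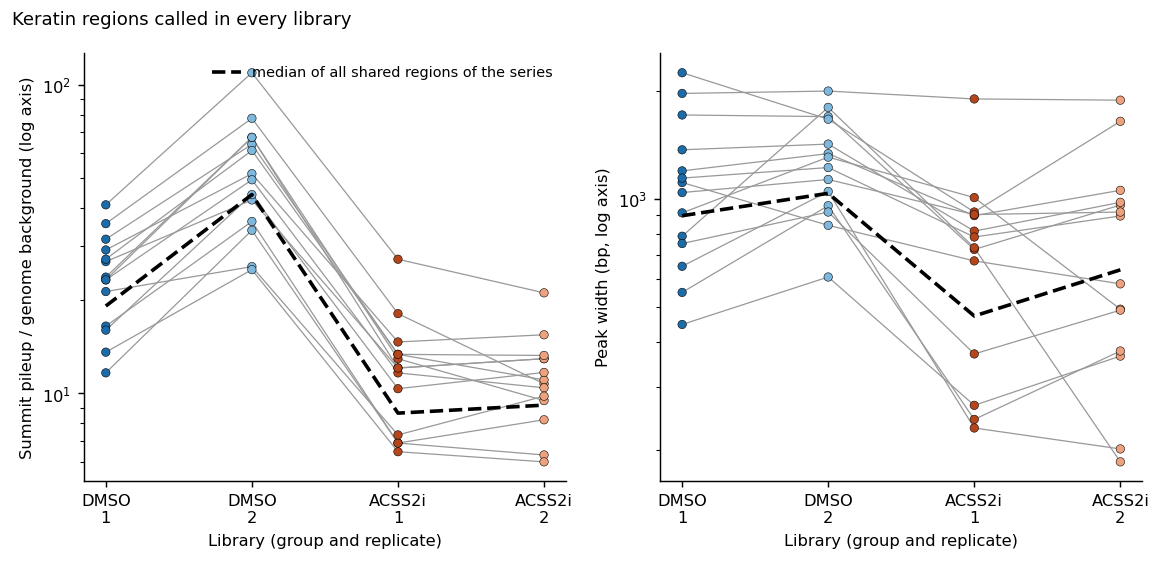
The 14 keratin regions called in every library are joined by grey lines across the 4 libraries (horizontal axis), with signal over background on the left and peak width in bp on the right (vertical axes, both logarithmic), where a library with several peaks in a region is shown by its strongest. Dashed lines are the medians of all 13306 shared regions; the keratin medians for signal are 23.6, 50.3, 12.1 and 10.9, and by signal DMSO replicate 2 is the highest library at every region.

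Few of the remaining keratin genes of chromosomes 12 and 17 had a call at the gene itself. Of the 5 members, 4 had a peak in the span or within 1000 bp of it in all 4 libraries, beside 40.9% of 20037 protein-coding genes, and KRT19 had none in any library, beside 72.1% of genes with one in at least 1 library. Of the 50 other keratin genes, 9 had such a peak in any library, 2 of them in all 4, and 41 lacked one. The count per library was 6 and 9 in DMSO against 3 and 3 in ACSS2i. Member spans were longer, with a median of 22.6 kb against 6.37 kb for the others, and the part of span length in these counts was not tested. Per 100 kb of window, the member windows held 9.42 regions, and the windows of the other keratin genes held 2.60 where they lay outside the member windows. The regions inside KRT86 and beside KRT13 that fall in member windows were counted with the members. KRT18 and KRT19, at 4.05 and 4.69 kb, are shorter than the median of the others.

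Among the other keratin genes, the 3 basal keratins of stratified epithelium (KRT5, KRT14 and KRT15) and the 5 stress and wound keratins (KRT6A, KRT6B, KRT6C, KRT16 and KRT17) had no peak in any library. Of 26 hair and hair follicle keratins 4 had a peak, of 7 mucosal or corneal keratins 3, of 5 suprabasal keratins 1, and of the other 4 genes 1. KRT78 was called in all 4 libraries, with fold 6.80 and 11.2 in DMSO against 6.18 and 3.47 in ACSS2i, and KRT86 through the region described above. KRT79, KRT10, KRT32 and KRT13 were called in both DMSO libraries and in no ACSS2i library. Their DMSO folds were 4.25 and 5.09 for KRT79, 4.02 and 5.50 for KRT10, 6.89 and 6.32 for KRT32, and 5.14 and 6.15 for KRT13, the last through the region in the KRT19 window. KRT23 was called in DMSO replicate 2 at fold 8.82 and in ACSS2i replicate 2 at fold 4.80. KRT34 was called in DMSO replicate 2 at fold 7.20 and in ACSS2i replicate 1 at fold 4.05, and KRT33B in DMSO replicate 2 alone at fold 6.91. All 9 genes were called in DMSO replicate 2, the longest list, and 5 of them in no ACSS2i library.

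The windows of these other keratin genes, where they lay outside the member windows, held 32 regions, 17 of them in both DMSO libraries. Of the 17, 7 (41.2%) were called in all 4 libraries and 8 (47.1%) in neither ACSS2i library. The member windows had 66.7% and 23.8%, and the series 42.2% and 33.5%. The median of the lower DMSO percentile was 54.4, against 66.7 in the member windows. With every list cut to the same number of its strongest peaks, 8 regions of these windows were called in both DMSO libraries. Of these, 6 (75%) were called in all 4 libraries and 0 were missing from both ACSS2i lists. The member windows then had 83.3% and 8.33%, and the series 77% and 6.41%. The higher share missing from both ACSS2i lists than in the member windows was thus absent at equal list length. These counts are small and no test of the differences was made. On chromosome 12, a stretch of 159 kb with the keratin genes KRT5, KRT71, KRT74, KRT72, KRT73 and KRT2 had no call in any library, and on chromosome 17 a stretch of 90.6 kb with KRT25, KRT26, KRT27 and KRT28 had none.

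**Figure D4:**
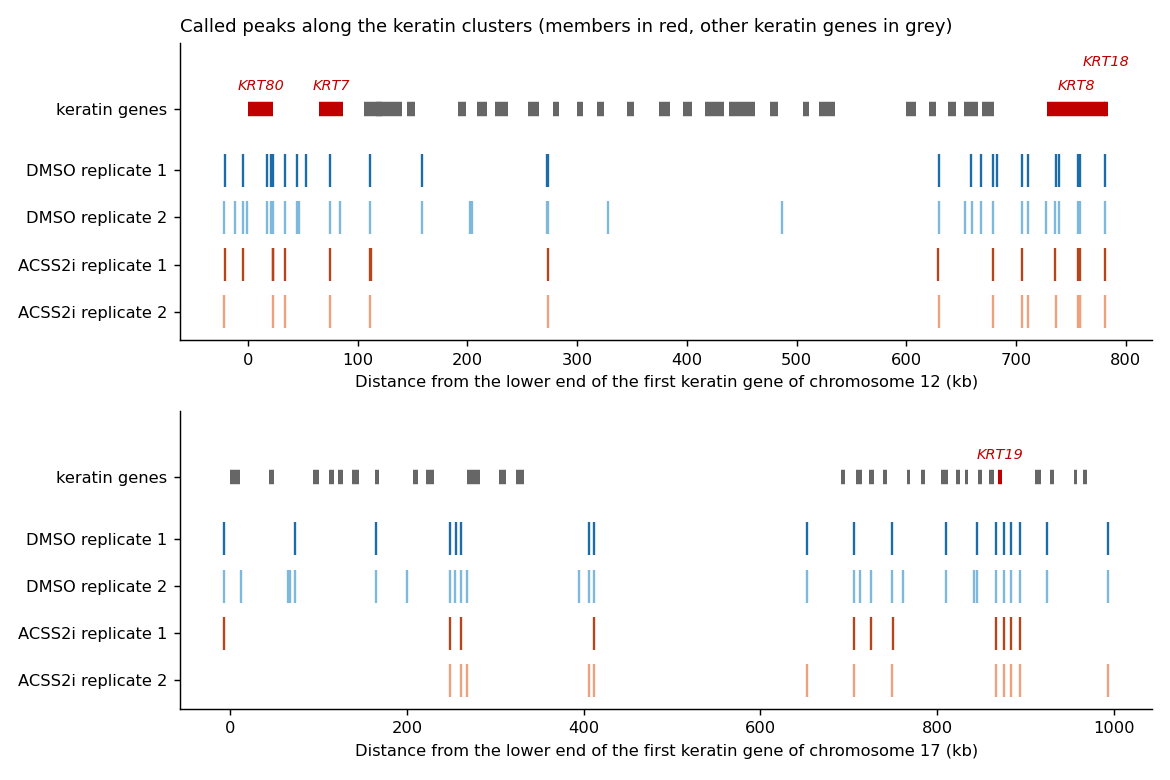
Tick marks show every called peak along the keratin clusters of chromosome 12 (top) and chromosome 17 (bottom), 1 row per library, against the distance in kb from the lower end of the first keratin gene. Gene spans are drawn above, members in red and other keratin genes in grey. On chromosome 12 the ticks are dense toward both ends of the cluster, at the members and also at KRT78 and KRT79. The 159 kb stretch without a call lies between these ends.

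Genes that work with keratins were read from lists by their gene-end peaks, those within 1000 bp of either end of the span. Across 20037 protein-coding genes, 52.3% had such a peak in both DMSO lists; of these, 58.0% had one in all 4 libraries and 18.9% in no ACSS2i library. KRT80, KRT8 and KRT18 had one in every library, KRT8 and KRT18 through the same region at their overlap, and KRT7 and KRT19 had none. Of 13 genes for proteins that attach or organise keratin filaments, 7 were called at an end in both DMSO lists, 2 in all 4 and 5 in neither ACSS2i library. The 2 kept were PPL (periplakin; fold 6.60 and 12.5 in DMSO, 5.49 and 5.08 in ACSS2i) and PLEC (plectin, a cross-linker of filaments; 3.73 and 5.67 in DMSO, 3.05 and 2.89 in ACSS2i). Those called in DMSO alone included the desmosomal genes PKP3 (4.63 and 6.44), JUP (5.74 and 5.46) and DSG2 (5.13 and 11.4), and FAM83H (3.01 and 5.84), which organises keratin filaments. Of the 13, 4 were called at neither end in any list, DSP, the desmosomal anchor of keratins, among them.

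Of 13 genes for other intermediate filament proteins, 6 were called at an end in both DMSO lists, 4 in all 4, and 1 in no ACSS2i library. VIM, the vimentin gene of mesenchymal cells, had fold 8.03 and 8.33 in DMSO against 7.87 and 6.96 in ACSS2i, and LMNB1, which encodes a nuclear lamin, had 7.62 and 8.91 in DMSO against 5.79 and 6.61 in ACSS2i. LMNA, the gene for lamins A and C, was the 1 called in DMSO alone, at 4.69 and 6.45. Of 15 genes for regulators and markers of epithelial identity, 4 were called at an end in both DMSO lists, 2 in all 4, and 2 in neither ACSS2i library. The transcription factor genes ELF3 (8.89 and 9.38 in DMSO, 5.80 and 6.67 in ACSS2i) and KLF4 (6.33 and 11.0 in DMSO, 4.28 and 3.94 in ACSS2i) were kept. GRHL1 (6.82 and 11.8) and TFAP2A (4.08 and 4.82) were called in DMSO alone. The epithelial adhesion genes CDH1 and EPCAM, and GRHL2, OVOL1 and OVOL2, were among 9 of the 15 that were called at neither end in any list. VIM thus had a gene-end peak in every library, as had KRT80 and the overlapping ends of KRT8 and KRT18.

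The 25 kb limit decided which flanking regions entered. Just inside it lay the chr12:52873914-52874962 region at 22.2 kb from KRT8, described above, and the next region beyond, chr12:52980904-52981305 at 28.0 kb from KRT18, was called in DMSO replicate 2 alone at fold 7.18. On chromosome 17 the KRT13 region at 23.2 kb was just inside, and chr17:41496797-41497060 at 26.6 kb, called in DMSO replicate 2 alone at fold 5.12, was just outside.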

How the data were processed

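ATAC-seq peak lists of 4 libraries were used, grouped by the treatment in the labels. Per the labels' protocols, thawed cells were treated with DNase I and nuclei with Tn5 for 30 min, and pairs of 150 bases were read. MACS2 2.1.2, Bowtie2, Trimmomatic 0.38, SAMtools 1.9, Picard 2.18.26, bedtools, deepTools 3.5.0, DiffBind, bcl2fastq 2.17 and the build hg38 come from the submitters' processing notes. No peak caller option, Tn5 shift, duplicate handling, list filter or read total was given in the sources used here.

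Peaks were deposited per library, with several summits possible in a peak. The score deposited by the authors is −log10 q times 10 and was only checked. The deposited fold column is the authors' ratio of summit over local background within a library, and the authors' −log10 p and −log10 q hold the caller's p-value and q-value within a library, with every −log10 q at least 2. The authors' summit offset in bp located the summit. These are the authors' values per peak.

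Rows with the same interval were taken as 1 peak with the values of its strongest summit, and peaks overlapping by 1 bp or more were merged into regions over the 4 libraries. Percentiles are of −log10 q among a library's peaks. A whole-number summit coverage and its local background were solved from fold and −log10 p (tolerance 0.001, checked on simulated peaks), and the lowest background of a library served as its genome background; this scales with depth only where fragments were extended alike. Gene spans and promoters came from RefSeq (GRCh38.p14, the same build), without strand or exons for spans. Members and lists were chosen with earlier results of these data known. Named genes were the 5 members, other keratin genes with any peak in the span with 1000 bp on each side, and from each list up to 4 genes called in DMSO alone by percentile and the 2 strongest in all libraries. Outside this rule, DSP, CDH1, EPCAM, GRHL2, OVOL1 and OVOL2 were named as examples of genes without a gene-end peak, and other such genes of the lists were not named. 1 marker of the lists is not reported here. No test was run. Alternatives covered the window, the overlap rule, joining, a threshold of −log10 q of 5, equal list length, summits, scale and left-out libraries. Python 3.11.15, numpy 2.4.6, pandas 2.3.3, scipy 1.17.1 and matplotlib 3.10.9 were used.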

Additional observations from a re-analysis of the deposited data

How the results depend on the processing

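Of 61 alternative values, 49 stayed within the spread or within 1.5 times of the reported value and 12 moved. For the regions called in all libraries and in DMSO only, the setting with every deposited row was not recomputed. It repeats the reported value there and could not move. The 14 regions called in all libraries became 8 with a 10 kb window and 6 within the spans alone. The 5 regions called in DMSO only became 3 and 3 with those windows. When each list was cut to its 16400 strongest peaks, 1 of 12 (8.33%) was called in DMSO only, beside 6.41% in the series. At that setting 10 of 12 (83.3%) were called in all libraries, beside 77% in the series. The lower share in DMSO only than in the series, seen with the full lists, was thus absent at equal list length. Leaving out 1 library gave 6 to 10 regions in DMSO only, the 10 without DMSO replicate 1 (38.5%, beside 55.9% in the series). The ratio of ACSS2i to DMSO regions per library was 0.646, and it was 0.5 at −log10 q of 5 or more and 0.964 at equal list length. The signal ratio of 0.313 was 0.676 on the fold scale. The 9 other keratin genes with a peak became 40 with 25 kb on each side and 5 at equal list length. No fit with a replicate block was made, since no test was run; taken by replicate number, the signal ratio was 0.502 for the libraries numbered 1 and 0.214 for those numbered 2. Depth is unknown, so an uncalled region is not a closed one: the lowest called signal over background was 4.75 and 3.79 in the ACSS2i libraries.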
